A study of Mus musculus with 12 samples.

Results

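DNA repair genes were examined in mouse lung after repeated lipopolysaccharide (LPS), the tobacco-specific carcinogen NNK, or both. The set held 43 genes of direct reversal, base excision, mismatch, nucleotide excision, double-strand break and Fanconi anaemia repair, listed by name, with earlier results of these data known. Through RefSeq accessions 41 of the 43 had a probe, among 17009 genes with a probe; all 41 passed the filter on dim probes, which asks for signal well above background throughout 1 group or more. No probe was matched to Mgmt or Atr, so their expression is not analysed here; their promoter sequences are counted below.

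The study treated female FVB/N mice (strain FVB/NJ in the labels), 7 weeks old at the start, in 4 groups with 3 lung arrays each. The PBS group received PBS weekly for 16 weeks. The LPS group received intranasal LPS, 5 ug per mouse, weekly over 16 weeks. The NNK group received NNK at 3 mg per mouse into the peritoneum in the first 4 weeks, given as biweekly in one label and semi-weekly in another, and the LPS/NNK group received both agents. All mice were killed 1 week after their last treatment. No vehicle is named for the NNK injections, and whether the lung tissue held tumour is not stated. The labels give no weekly PBS for the NNK group. Read as written, its lungs were taken earlier than those of the other groups, from younger mice. They were also taken sooner after NNK than the LPS/NNK lungs. In comparisons that use the NNK group, treatment cannot be told apart from age, time since NNK and weekly dosing. Arrays carry the number in their label: the PBS arrays are 1, 2 and 3, those of LPS are 1, 5 and 6, those of NNK are 2, 3 and 5, and the combined group has 2, 3 and 6; values below follow this order.

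Cells remove DNA damage by several routes. Alkyl groups, which NNK metabolites leave on DNA, are taken off directly by dioxygenases or methyltransferases, or the damaged base is cut out by a glycosylase and the gap filled and sealed in base excision repair. Oxidised bases, which reactive oxygen in inflamed lung can produce, use the same excision route, bulky adducts need nucleotide excision, replication errors need mismatch repair, and broken ends are joined by homologous recombination or end joining.

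Values are log2 signals relative to the 75th percentile of each array, so that a difference of 1 is a doubling; levels of different genes are not compared, since probes differ in brightness. A change was called where limma's p, adjusted by Benjamini-Hochberg over 21855 genes and unnamed array targets, was under 0.05. The PBS arrays stood apart from the treated arrays in technical measures. The 75th percentile of the signal was 698.9 to 983.8 on the PBS arrays and 183.4 to 509.4 on the 9 others. The share of probes well above background was 69.6% to 72.6% against 54.7% to 66.8%. Spike-in controls went the other way, with median log2 signals before centring of 9.05 to 10.09 on PBS and 10.47 to 11.39 on the others. PBS 2 was scanned on another day than all other arrays. PBS 1 and PBS 2 also went against the female label: Xist was not above background there, and Ddx3y, Eif2s3y, Kdm5d and Uty of the Y chromosome were above background on those 2 arrays alone. Differences from PBS are therefore also given with PBS 3 as the only PBS array for the genes described in full, and this alternative assumes that PBS 3 varies like the other arrays. The part of signal strength, of the mismatched arrays, of scan day and of slide in the differences from PBS was not tested. In whole lung RNA, fewer cells of a type and less RNA per cell cannot be told apart. The labels do not say that the arrays of a group came from separate mice, so p-values measure the spread between these arrays. Lung tissue was checked by its markers: Sftpc, Scgb1a1, Ager and Pecam1 were well above background in every group, Sftpc among 17 of 18 lung markers tested.

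Against PBS, 46.3% to 51.2% of the repair genes were called after each treatment, in both directions, a share no higher than over all items tested. After LPS 20 of 41 were called, 8 higher and 12 lower, where 56% of all items tested were called (26.1% higher, 29.9% lower). After NNK 19 were called, 7 higher and 12 lower, against 51.5% of all items (27.8% higher, 23.7% lower). After LPS/NNK 21 were called, 10 higher and 11 lower, against 55.1% of all items (27.9% higher, 27.1% lower). The median change of the repair genes was -0.19, -0.32 and -0.19, and that of all items -0.06, 0.04 and -0.04. These shares near the background give no result on repair genes as a set; the results below concern single genes. With PBS 3 as the only PBS array, 13, 8 and 13 repair genes were called, with 26%, 19.7% and 30.3% of all items. With another background correction (normexp, a model of signal plus noise fitted to the spot medians) 6, 5 and 10 were called, and of all called items 63.9%, 82.2% and 79.9% were higher, in place of 46.5%, 54% and 50.7%. The 3 comparisons share the PBS arrays, so their values are set side by side below and one is no repeat of another. Treated and PBS arrays had no overlap in 27, 28 and 22 repair genes, against 62.6%, 67.6% and 62% of all items. NNK 2 shared a slide with PBS 3, and LPS/NNK 6 with PBS 1; within these slides 17 of 41 genes were higher than PBS in each, with median differences of -0.21 and -0.2. No LPS array shared a slide with a PBS array, so slide as a fixed effect was not among the alternatives for LPS against PBS. Slide as a fixed effect was fitted only on arrays that shared a slide, without PBS 2 and the 3 LPS arrays. This fit had 2 residual degrees of freedom and left 11 of the 19 NNK calls and 15 of the 21 LPS/NNK calls. It ended the NNK calls of Alkbh2, Atm, Lig1, Mpg, Nbn, Pms2, Ung and Xpa. The LPS/NNK calls of Alkbh2, Alkbh3, Atm, Fancd2, Mlh3 and Msh6 also ended. The part of slide and that of the arrays left out in these losses cannot be told apart.

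**Figure D1:**
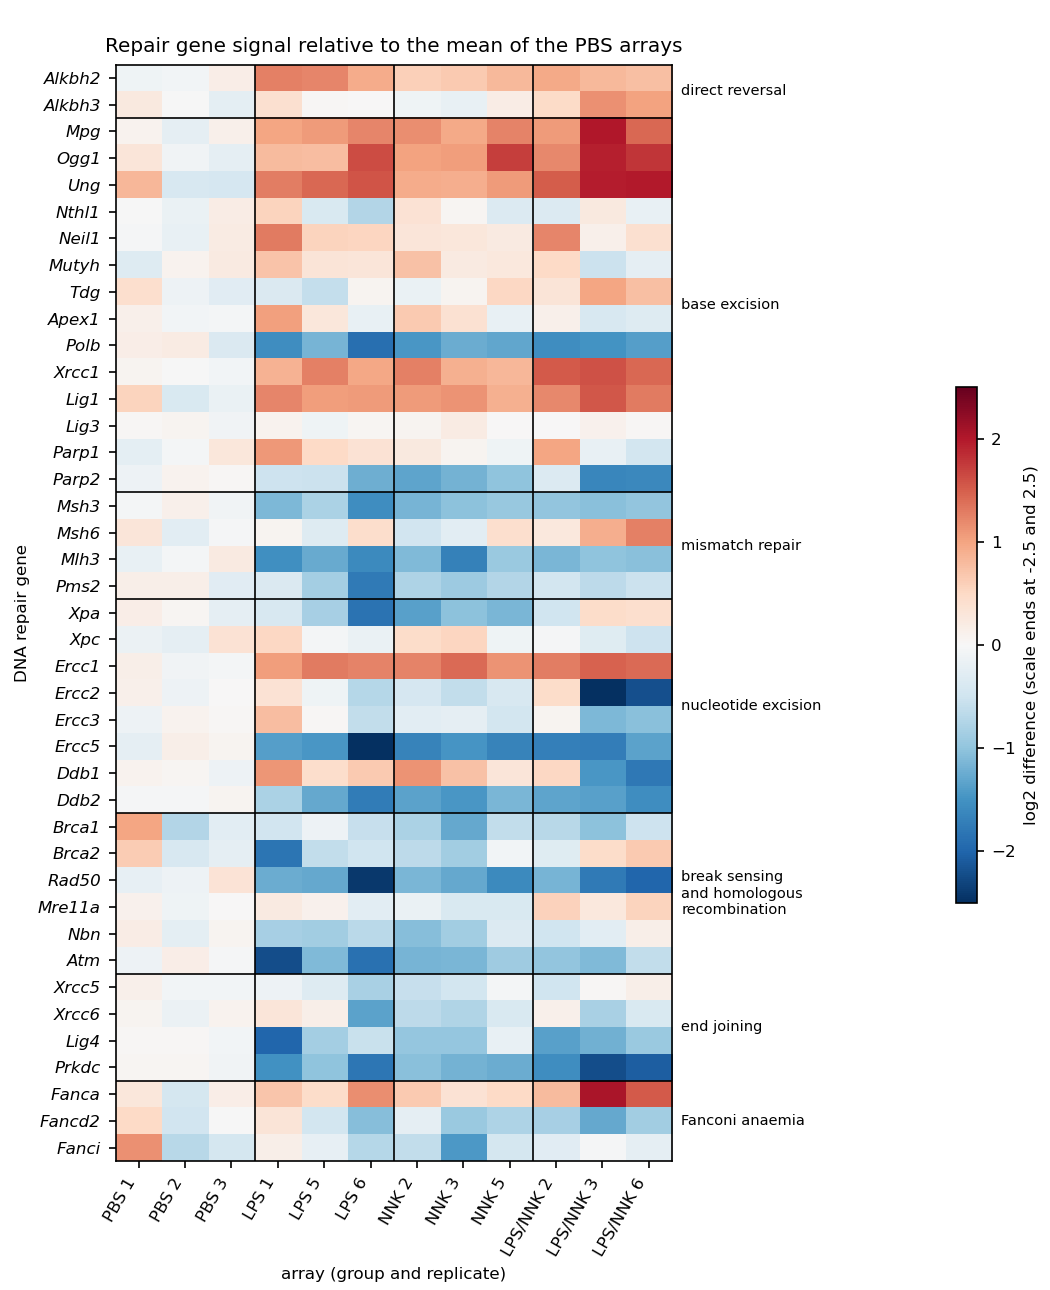
Log2 signal of 41 repair genes (rows, by pathway) on the 12 arrays (columns, by group), as the difference from the mean of the 3 PBS arrays; red is higher and blue lower. Alkbh2, Mpg, Ogg1, Ung, Xrcc1, Lig1 and Ercc1 were above the PBS mean on all 9 treated arrays, and Polb, Msh3, Mlh3, Ercc5, Ddb2, Rad50, Atm and Prkdc below it; Ddb1, Ercc2 and Xpa separate LPS/NNK 3 and 6 from LPS/NNK 2.

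Promoter sequence was set beside 2 genes that were higher than PBS in all 3 comparisons, Mpg and Ung, and 2 that were lower, Msh3 and Ercc5, chosen after their values were seen. Shown are the 250 bases before an annotated start in RefSeq (GRCm38.p6), 5′ to 3′ on the strand of the gene. GC boxes (GGGCGG, or CCGCCC on the other strand) are in capitals. The gene spans of Ung and Ercc5 begin earlier, at 114130366 and 44146948. The Ung window therefore lies partly, and the Ercc5 window wholly, within the gene span. Mpg lies at chr11:32226255-32226504 (+), Ung at chr5:114130185-114130434 (+), Msh3 at chr13:92355004-92355253 (-) and Ercc5 at chr1:44147494-44147743 (+).
Mpg: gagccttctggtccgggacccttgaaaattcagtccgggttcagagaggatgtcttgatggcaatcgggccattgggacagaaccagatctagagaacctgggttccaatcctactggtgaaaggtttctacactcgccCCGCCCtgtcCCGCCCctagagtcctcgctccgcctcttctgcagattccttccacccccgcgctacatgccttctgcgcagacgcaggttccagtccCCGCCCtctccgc
Ung: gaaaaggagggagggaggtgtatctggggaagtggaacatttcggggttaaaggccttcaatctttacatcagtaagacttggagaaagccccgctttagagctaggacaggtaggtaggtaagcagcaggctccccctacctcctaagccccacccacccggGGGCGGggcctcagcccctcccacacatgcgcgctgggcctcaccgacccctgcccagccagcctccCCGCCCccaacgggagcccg
Msh3: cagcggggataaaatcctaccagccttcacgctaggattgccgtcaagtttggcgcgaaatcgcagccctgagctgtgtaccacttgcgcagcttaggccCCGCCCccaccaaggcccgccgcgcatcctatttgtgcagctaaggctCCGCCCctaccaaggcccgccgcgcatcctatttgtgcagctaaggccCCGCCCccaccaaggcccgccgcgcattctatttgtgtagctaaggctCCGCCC
Ercc5: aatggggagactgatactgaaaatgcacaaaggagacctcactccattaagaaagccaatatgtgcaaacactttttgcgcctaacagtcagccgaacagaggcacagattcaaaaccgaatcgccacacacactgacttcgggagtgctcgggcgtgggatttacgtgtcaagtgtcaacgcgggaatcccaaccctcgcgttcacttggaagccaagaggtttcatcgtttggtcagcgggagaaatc
The GC box occurred 3 times in the window of Mpg, 2 times in that of Ung, 4 times in that of Msh3 and 0 times in that of Ercc5. It did not sort these genes by direction. A window was found for 35 repair genes, Mgmt and Atr included, 41 windows in all, since some genes have several starts. A GC box was in 24 of them (58.5%), against 32.7% of all 32851 windows of this length. CCAAT, on either strand, was in 20 (48.8%) against 33.8%. One of the E2F words TTTCCCGC, TTTCGCGC, TTTGCCGC and TTTGGCGC, on either strand, was in 4 (9.8%; Brca2, Msh3, Nthl1 and Xrcc6) against 1.9%. A window could hold more than 1 motif, and a match describes the letters and shows no bound factor.

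Of the direct reversal genes, Alkbh2 was higher than PBS in each treated group. Alkbh2 encodes a dioxygenase that removes methyl groups from bases of double-stranded DNA. Its signal was -1.56, -1.52 and -1.29 on the PBS arrays, -0.19, -0.24 and -0.52 after LPS, -0.86, -0.81 and -0.65 after NNK, and -0.5, -0.64 and -0.71 after LPS/NNK. All 9 treated arrays lay above all 3 PBS arrays, and the LPS arrays lay above the NNK arrays. The change was 1.14 ± 0.21 after LPS (SE, n = 3 per group; limma adjusted p = 0.000659), 0.68 ± 0.21 after NNK (limma adjusted p = 0.0156) and 0.84 ± 0.21 after both (limma adjusted p = 0.00421), or 2.2-fold, 1.61-fold and 1.79-fold. With PBS 3 alone the rise after LPS remained called at 0.98, while NNK gave 0.52 (limma adjusted p = 0.269) and LPS/NNK 0.68 (limma adjusted p = 0.139). The NNK call also missed the threshold without PBS 1 (0.63), PBS 2 (0.65) or NNK 5 (0.62).

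Alkbh3, a related dioxygenase that acts on single-stranded DNA and RNA, was higher in the LPS/NNK group alone among the 3. The signal was 0.84, 0.59 and 0.36 on the PBS arrays, 0.99, 0.62 and 0.6 after LPS, 0.48, 0.41 and 0.78 after NNK, and 1.07, 1.73 and 1.6 after LPS/NNK. The LPS/NNK arrays were the 3 highest of the 12, and the other groups overlapped each other. Against PBS the change was 0.87 ± 0.25 (limma adjusted p = 0.00989) after LPS/NNK, 0.14 ± 0.25 after LPS and -0.04 ± 0.25 after NNK. A second Alkbh3 probe, also above background on all 12 arrays, went the other way by -0.79 between LPS/NNK and PBS. The first probe with PBS 3 alone gave 1.11 (limma adjusted p = 0.0457). The mean of both probes gave 0.04 (limma adjusted p = 0.9), so the direction for Alkbh3 depends on the probe.

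In base excision repair, 5 genes were higher and Polb was lower than PBS after all 3 treatments. The 14 genes split 6 higher and 1 lower after LPS, 5 and 2 after NNK, and 5 and 2 after LPS/NNK. Of all items 56%, 51.5% and 55.1% were called in these comparisons. The higher ones included 3 glycosylases, which start the pathway. Mpg, which removes alkylated purines, gave 0.95, 0.62 and 0.99 on the PBS arrays, 1.83, 1.91 and 2.07 after LPS, 2.01, 1.8 and 2.09 after NNK, and 1.92, 2.86 and 2.28 after LPS/NNK. No treated array reached down to the PBS arrays, and LPS/NNK 3 was the highest of all. Mpg rose 2.12-fold after LPS (1.08 ± 0.26; limma adjusted p = 0.00332), 2.16-fold after NNK (1.11 ± 0.26; limma adjusted p = 0.00352) and 2.83-fold after LPS/NNK (1.5 ± 0.26; limma adjusted p = 0.000355). The last call held under every alternative tried; with PBS 3 alone the first 2 gave 0.95 (limma adjusted p = 0.0943) and 0.97 (limma adjusted p = 0.0988), and with normexp 0.94 and 0.65, not called. On the shared slides Mpg was higher than PBS by 1.02 (NNK 2) and 1.33 (LPS/NNK 6), but with slide as a fixed effect the NNK call was lost (0.97; limma adjusted p = 0.0623).

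Ung, the glycosylase that removes uracil, read -0.06, -1.3 and -1.32 on the PBS arrays, 0.39, 0.55 and 0.68 after LPS, 0.04, 0.01 and 0.18 after NNK, and 0.62, 1.07 and 1.09 after LPS/NNK. PBS 1 lay well above the other PBS arrays and just under the NNK arrays. The change was 1.43 ± 0.31 after LPS (limma adjusted p = 0.00194), 0.97 ± 0.31 after NNK (limma adjusted p = 0.0197) and 1.82 ± 0.31 after LPS/NNK (limma adjusted p = 0.000349). The LPS and LPS/NNK calls held under every alternative tried. The NNK call was lost without PBS 2 (0.77), PBS 3 (0.76) or NNK 5 (0.92), with normexp (0.74), and with slide as a fixed effect (0.98). Ung gave 1.86, 1.4 and 2.25 with PBS 3 alone, all called.

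Ogg1, which cuts out oxidised guanine, gave -0.18, -0.57 and -0.72 on the PBS arrays, 0.31, 0.28 and 1.14 after LPS, 0.52, 0.55 and 1.24 after NNK, and 0.71, 1.45 and 1.3 after LPS/NNK. The treated arrays all lay above the PBS arrays, with LPS 6, NNK 5 and LPS/NNK 3 at the top of their groups. The change was 1.06 ± 0.31 (limma adjusted p = 0.0117), 1.26 ± 0.31 (limma adjusted p = 0.00542) and 1.64 ± 0.31 (limma adjusted p = 0.000758) after LPS, NNK and LPS/NNK. Its second probe changed by 1, 1.31 and 1.53. Without LPS 6 the LPS value was 0.78 (limma adjusted p = 0.0506), with PBS 3 alone 1.29 (limma adjusted p = 0.0629). With normexp the LPS and NNK calls were lost (0.92 and 0.88), while the LPS/NNK call held under every alternative tried. Neil1, another glycosylase for oxidised bases, was called after LPS alone (0.79 ± 0.3; limma adjusted p = 0.0377), and no longer without LPS 1 (0.54), PBS 1 (0.78) or PBS 2 (0.7), or with PBS 3 alone. Nthl1, Mutyh and Tdg, glycosylases for oxidised pyrimidines, mispaired adenine and mispaired thymine, were not called against PBS, with changes between -0.3 and 0.69. For Tdg a second probe changed by -0.64 in LPS/NNK against PBS where the brighter one changed by 0.69. The brighter Tdg probe was called in that comparison without LPS/NNK 2 (0.87) or PBS 1 (0.89).

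Downstream of the glycosylases the directions were mixed. Xrcc1, the scaffold that holds the repair enzymes at the gap, gave 1.74, 1.65 and 1.6 on the PBS arrays, 2.53, 2.92 and 2.63 after LPS, 2.92, 2.55 and 2.5 after NNK, and 3.19, 3.26 and 3.1 after LPS/NNK. The LPS/NNK arrays were above all 9 others. The rise was 1.03 ± 0.22 (limma adjusted p = 0.00156), 0.99 ± 0.22 (limma adjusted p = 0.00247) and 1.52 ± 0.22 (limma adjusted p = 9.35e-05), the last being 2.87-fold. Lig1, a DNA ligase that also seals replication gaps, read 2.44, 1.5 and 1.73 on the PBS arrays, 3.11, 2.94 and 2.95 after LPS, 2.95, 3.02 and 2.78 after NNK, and 3.09, 3.45 and 3.19 after LPS/NNK. PBS 1 was again the highest PBS array and lay under every treated array. Lig1 changed by 1.11 ± 0.26 (limma adjusted p = 0.00289), 1.02 ± 0.26 (limma adjusted p = 0.00546) and 1.35 ± 0.26 (limma adjusted p = 0.000722). With normexp the LPS and NNK calls of both genes were lost. Xrcc1 with PBS 3 alone gave 1.09, 1.05 and 1.58, the NNK value not called (limma adjusted p = 0.0523), and Lig1 gave 1.27, 1.19 and 1.51, all called. The NNK call of Lig1 was also lost under cyclic loess and with slide as a fixed effect (0.88); for both genes the LPS/NNK calls held under every alternative tried.

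Polb, the polymerase that fills the gap, was 0.62, 0.65 and 0.08 on the PBS arrays, -1.1, -0.71 and -1.44 after LPS, -1, -0.79 and -0.85 after NNK, and -1.1, -1.05 and -0.92 after LPS/NNK. Every treated array lay below every PBS array. Polb fell by 1.53 ± 0.25 after LPS (limma adjusted p = 0.000305), by 1.33 ± 0.25 after NNK (limma adjusted p = 0.00106) and by 1.47 ± 0.25 after LPS/NNK (limma adjusted p = 0.00032), or 2.89-fold, 2.51-fold and 2.78-fold. The LPS and LPS/NNK calls held under every alternative tried; with PBS 3 alone LPS gave -1.16, LPS/NNK -1.1 and NNK -0.95, the last not called (limma adjusted p = 0.0835). Parp2, one of the enzymes that mark strand breaks with poly(ADP-ribose), fell after NNK (-1.17 ± 0.33; limma adjusted p = 0.0105) and after LPS/NNK (-1.2 ± 0.33; limma adjusted p = 0.00777), with -0.77 ± 0.33 after LPS. Its second probe gave -1.24, -1.33 and -0.81 in the same order. With PBS 3 alone both Parp2 calls were lost. Parp1, the main enzyme of that kind, Apex1, which cuts at the emptied site, and Lig3, the ligase that binds Xrcc1, were not called in any comparison, with Lig3 between -2.01 and -1.69 on all 12 arrays.

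**Figure D2:**
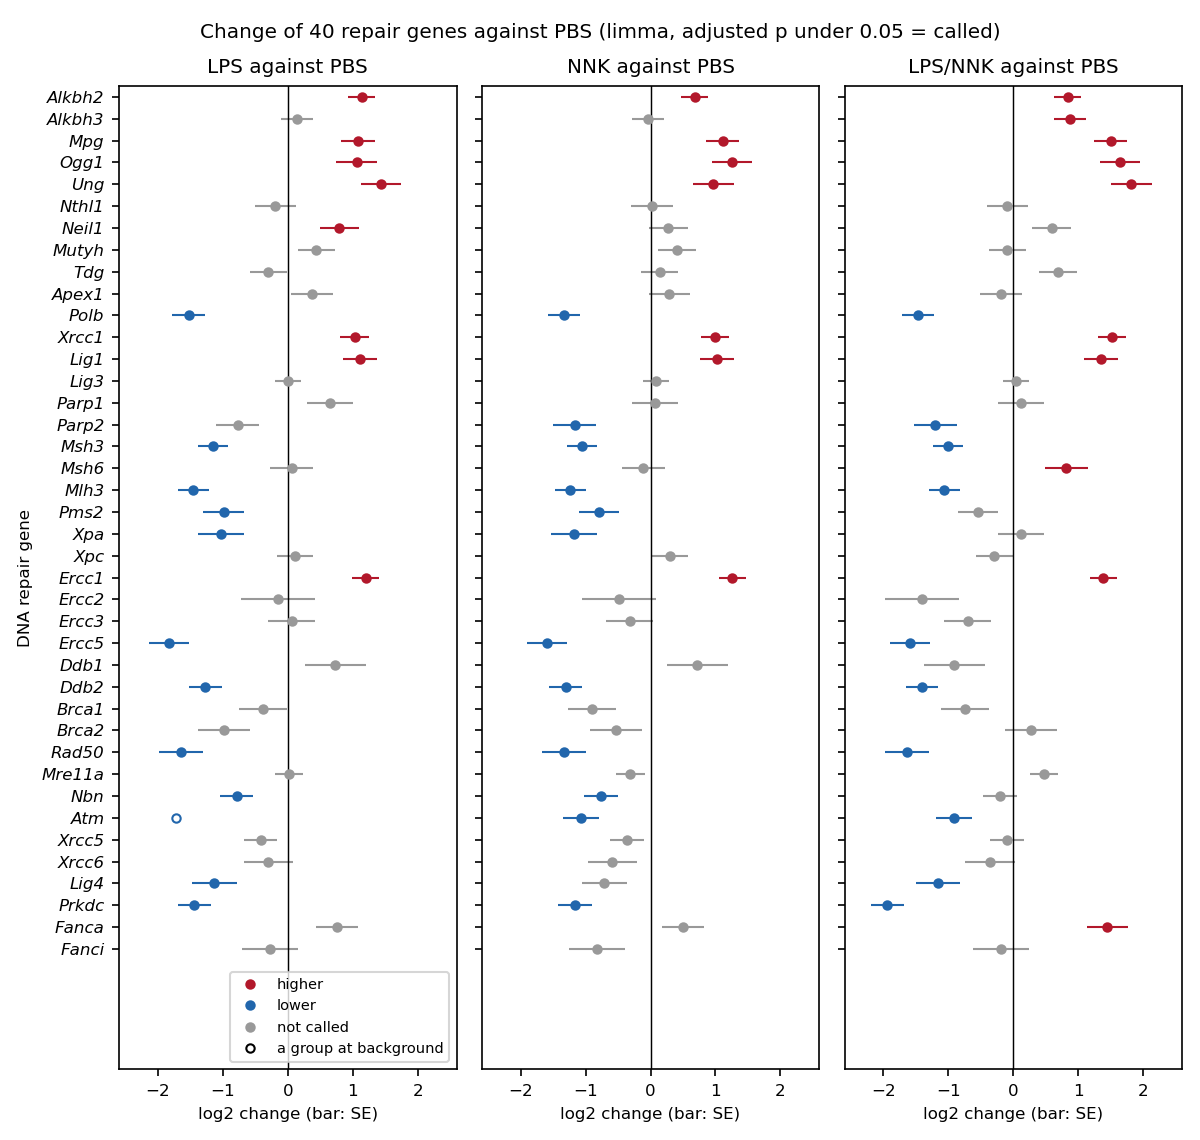
Log2 change against PBS of 40 repair genes after LPS, NNK and LPS/NNK (points, bars are standard errors from limma, 3 arrays per group); red and blue points passed an adjusted p under 0.05, grey did not. Fancd2 is not drawn because no treated array was above background, and the open point for Atm after LPS is a group at background. Points to the right include Mpg, Ogg1, Ung, Xrcc1, Lig1 and Ercc1 in all 3 panels, and to the left Polb, Msh3, Mlh3, Ercc5, Ddb2, Rad50, Atm and Prkdc.

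Of the mismatch repair genes, Msh3 and Mlh3 were called lower than PBS in all 3 comparisons, Pms2 only after the single agents, and Msh6 was called higher after LPS/NNK. Of 4 genes, 3 fell after LPS and 3 after NNK, and after LPS/NNK 2 fell and Msh6 rose. Of all items 56%, 51.5% and 55.1% were called in the 3 comparisons. Msh3, which recognises larger insertion loops, gave -0.03, 0.16 and -0.06 on the PBS arrays, -1.09, -0.77 and -1.52 after LPS, -1.13, -1 and -0.93 after NNK, and -0.96, -1.03 and -0.96 after LPS/NNK. The treated arrays all lay below the PBS arrays. Msh3 fell by 1.15 ± 0.23 (limma adjusted p = 0.00111), 1.05 ± 0.23 (limma adjusted p = 0.00263) and 1.01 ± 0.23 (limma adjusted p = 0.00245). The LPS call held under every alternative tried, while with PBS 3 alone NNK gave -0.97 (limma adjusted p = 0.0796) and LPS/NNK -0.93 (limma adjusted p = 0.0722), and both calls were also lost with normexp (-0.62 and -0.67). The mean of its 3 probes, 2 of them above background on 7 and 4 arrays, gave -0.56 for LPS/NNK (limma adjusted p = 0.093).

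Mlh3, which acts in mismatch repair and meiotic crossing over, read -2.09, -1.95 and -1.67 on the PBS arrays, -3.44, -3.16 and -3.49 after LPS, -3, -3.59 and -2.84 after NNK, and -3.05, -2.9 and -2.94 after LPS/NNK. No treated array overlapped the PBS arrays. The change was -1.46 ± 0.24 (limma adjusted p = 0.000364), -1.24 ± 0.24 (limma adjusted p = 0.00138) and -1.06 ± 0.24 (limma adjusted p = 0.00253). With normexp these became -0.37, 0.3 and 0.11, none called, and with PBS 3 alone -1.69, -1.47 and -1.29, all called; the direction after NNK and LPS/NNK turned with the background correction. A second Mlh3 probe, above background on 5 arrays, changed by -2.26, -2.31 and -0.21, and the mean of both probes put LPS/NNK 1.14 above NNK (limma adjusted p = 0.00501) where the brighter probe gave 0.18. Pms2, an endonuclease of mismatch repair, was called after LPS (-0.99 ± 0.31; limma adjusted p = 0.0148) and NNK (-0.8 ± 0.31; limma adjusted p = 0.0424), but the NNK call was lost in 12 of 20 alternatives, including without PBS 1, PBS 2, NNK 2, NNK 3 or NNK 5 (values from -0.83 to -0.73). The LPS call was lost without LPS 6 (-0.6) or PBS 2 (-0.92), and both calls with PBS 3 alone. Msh6, which recognises single mismatches, was called after LPS/NNK alone (0.82 ± 0.33; limma adjusted p = 0.0475), and not without PBS 2 (0.68), PBS 3 (0.8), LPS/NNK 3 (0.77) or LPS/NNK 6 (0.59), nor with PBS 3 alone.

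In nucleotide excision repair Ercc1 was higher than PBS after each treatment, whereas Ercc5 and Ddb2 were lower. Of 8 genes, 1 rose and 3 fell after LPS, 1 rose and 3 fell after NNK, and 1 rose and 2 fell after LPS/NNK. The shares called of all items were 56%, 51.5% and 55.1%. Ercc1, part of the nuclease that cuts on the 5′ side of the lesion, gave 1.25, 1 and 1.04 on the PBS arrays, 2.15, 2.4 and 2.34 after LPS, 2.34, 2.52 and 2.22 after NNK, and 2.38, 2.58 and 2.51 after LPS/NNK. The treated groups overlapped one another and lay clear of PBS. Ercc1 rose 2.3-fold (1.2 ± 0.21; limma adjusted p = 0.000449), 2.4-fold (1.26 ± 0.21; limma adjusted p = 0.000536) and 2.63-fold (1.39 ± 0.21; limma adjusted p = 0.000131). The LPS and LPS/NNK calls held under every alternative tried; with normexp NNK gave 0.6 (limma adjusted p = 0.181). Ercc1 with PBS 3 alone gave 1.25, 1.31 and 1.45, all called.

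Ercc5, the nuclease that cuts on the 3′ side, was -1.05, -0.68 and -0.75 on the PBS arrays, -2.21, -2.28 and -3.48 after LPS, -2.49, -2.3 and -2.49 after NNK, and -2.53, -2.55 and -2.16 after LPS/NNK. LPS 6 was the lowest array, and all treated arrays lay below PBS. The fall was 1.83 ± 0.31 after LPS (limma adjusted p = 0.000391; log2 change -1.83), with -1.6 ± 0.31 after NNK (limma adjusted p = 0.00125) and -1.59 ± 0.31 after LPS/NNK (limma adjusted p = 0.000875). Ddb2, the subunit that finds ultraviolet photoproducts, read 0.05, 0.05 and 0.14 on the PBS arrays, -0.72, -1.19 and -1.66 after LPS, -1.26, -1.38 and -1.07 after NNK, and -1.23, -1.28 and -1.48 after LPS/NNK. PBS spread little and the LPS arrays spread most. Ddb2 changed by -1.27 ± 0.25 (limma adjusted p = 0.00107), -1.31 ± 0.25 (limma adjusted p = 0.00116) and -1.41 ± 0.25 (limma adjusted p = 0.000456). Both genes lost their calls under normexp alone of the alternatives, where Ercc5 gave -1.03, -0.52 and -0.68 and Ddb2 -0.88, -0.66 and -0.81. Ercc5 with PBS 3 alone gave -1.91, -1.68 and -1.66 and Ddb2 -1.32, -1.37 and -1.47, all called.

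Xpa and Ddb1 set LPS/NNK 3 and 6 apart, while LPS/NNK 2 lay within the range of the LPS arrays. Xpa, which checks the damaged strand, was -0.21, -0.32 and -0.59 on the PBS arrays, -0.78, -1.21 and -2.22 after LPS, -1.74, -1.4 and -1.52 after NNK, and -0.87, 0.08 and 0.04 after LPS/NNK. It fell after LPS (-1.03 ± 0.35; limma adjusted p = 0.0247) and NNK (-1.18 ± 0.35; limma adjusted p = 0.0144) and gave 0.12 ± 0.35 (limma adjusted p = 0.783) after LPS/NNK. LPS/NNK 3 and 6 lay above every PBS array and LPS/NNK 2 below them. The LPS call was lost without LPS 6 (-0.62), PBS 1 (-0.95) or PBS 2 (-1), and the NNK call without NNK 2 (-1.08). Neither was called with PBS 3 alone (-0.81 and -0.96). Ddb1, the partner of Ddb2 and adaptor of the Cul4 ubiquitin ligases, gave 1.69, 1.65 and 1.49 on the PBS arrays, 2.72, 2.05 and 2.26 after LPS, 2.73, 2.34 and 1.92 after NNK, and 2.12, 0.16 and -0.17 after LPS/NNK. It was not called against PBS in any group, and LPS/NNK 2 lay with the LPS and NNK arrays while the other 2 LPS/NNK arrays were the lowest of the 12. Without LPS/NNK 2 it was called lower than PBS after LPS/NNK (-1.62; limma adjusted p = 0.0006).

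Ercc2 and Ercc3, the helicases of transcription factor TFIIH, showed the same division of the LPS/NNK arrays. These arrays were also divided in technical measures. The 75th percentile of the signal was 509.4 on LPS/NNK 2 and 192 and 183.4 on LPS/NNK 3 and 6. The shares of probes well above background were 65.5%, 56.5% and 55.6%. The part of signal strength in this division was not tested. Ercc2 was -2.35 on LPS/NNK 2 against -5.32 and -5 on LPS/NNK 3 and 6, where it was not above background. Ercc3 was 1.24 on LPS/NNK 2 and 0.04 and 0.12 on the others. Neither was called against PBS, and both were called lower without LPS/NNK 2, Ercc3 by -1.09 (limma adjusted p = 0.015) and Ercc2 with no fold given, since both arrays left were at background. Xpc, which finds distorted DNA, lay between 1.62 and 2.69 on all arrays and was not called; its second probe changed by -1.14 in LPS/NNK against PBS where the brighter one changed by -0.29.

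Genes for sensing and recombining double-strand breaks were lower than PBS or not called, and none was called higher. Of 6 genes, 3 fell after LPS, 3 after NNK and 2 after LPS/NNK, where 29.9%, 23.7% and 27.1% of all items were called lower. Rad50, which tethers broken ends with Mre11a and Nbn, read -0.31, -0.23 and 0.24 on the PBS arrays, -1.34, -1.37 and -2.52 after LPS, -1.25, -1.38 and -1.7 after NNK, and -1.26, -1.86 and -2.09 after LPS/NNK. Every treated array lay below every PBS array, and LPS 6 was the lowest. The change was -1.64 ± 0.34 (limma adjusted p = 0.00132), -1.34 ± 0.34 (limma adjusted p = 0.00537) and -1.64 ± 0.34 (limma adjusted p = 0.00123), a 3.13-fold, 2.54-fold and 3.11-fold fall. The LPS call held under every alternative tried; with normexp NNK gave -0.61 (limma adjusted p = 0.16) and LPS/NNK -0.88 (limma adjusted p = 0.0609). Rad50 with PBS 3 alone gave -1.99, -1.69 and -1.98, all called.

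Nbn, another member of that complex, gave 2.06, 1.64 and 1.95 on the PBS arrays, 1.06, 1.01 and 1.21 after LPS, 0.81, 1.02 and 1.54 after NNK, and 1.39, 1.62 and 2.03 after LPS/NNK. The LPS and NNK arrays lay below PBS, and the LPS/NNK arrays overlapped PBS. Nbn changed by -0.79 ± 0.26 (limma adjusted p = 0.0194) and -0.76 ± 0.26 (limma adjusted p = 0.0252) after LPS and NNK, and by -0.2 ± 0.26 after LPS/NNK. Its second probe, above background on all 12 arrays, changed by -1.1, -1.13 and -0.94, so the value after LPS/NNK depends on the probe. The LPS call was lost without PBS 1 (-0.7), PBS 3 (-0.75) or LPS 5 (-0.75), and the NNK call without PBS 1 (-0.67), PBS 3 (-0.73), NNK 2 (-0.6) or NNK 3 (-0.71); with PBS 3 alone neither was called. Mre11a, the nuclease of the complex, was -0.9, -1.1 and -1 on the PBS arrays, -0.77, -0.9 and -1.27 after LPS, -1.16, -1.39 and -1.39 after NNK, and -0.42, -0.74 and -0.44 after LPS/NNK. It was not called against PBS, and the LPS/NNK arrays were the 3 highest. Its second probe, above background on 5 arrays, changed by -0.7, -0.62 and -1.03 against PBS.

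Atm, the kinase that signals breaks, was dim: it was above background on 7 of 12 arrays, 0 of 3 after LPS and 1 of 3 after LPS/NNK. The values were -3.47, -3.18 and -3.37 for PBS, -5.55, -4.44 and -5.2 for LPS, -4.51, -4.48 and -4.23 for NNK, and -4.33, -4.45 and -3.96 for LPS/NNK. PBS lay above all treated arrays. Since the LPS group was not well above background, PBS was at least 2.01-fold higher (limma adjusted p = 3e-04), a bound taken against the dimmest probe well above background on each LPS array. Against PBS the change was -1.07 ± 0.28 after NNK (limma adjusted p = 0.00697) and -0.91 ± 0.28 after LPS/NNK (limma adjusted p = 0.0142). With normexp the 3 changes were 0.08, 0.9 and 0.69, none called, and the LPS/NNK call was also lost without PBS 2 (-0.83) or LPS/NNK 3 (-0.81). With PBS 3 alone NNK gave -1.04 (limma adjusted p = 0.107) and LPS/NNK -0.88 (limma adjusted p = 0.142). Brca1 and Brca2, which load and guide recombination, were not called against PBS; PBS 1 was the highest of the 3 PBS arrays for both, with Brca1 at -1.43, -3.15 and -2.69 and Brca2 at -1.45, -2.5 and -2.32. Brca2 was called lower after LPS without LPS 6 (-1.22) or PBS 2 (-1.19), and Brca1 without PBS 2 after NNK (-1.26) and LPS/NNK (-1.11).

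End joining genes showed a fall of Prkdc after each treatment. Of 4 genes, 2 fell after LPS, 1 after NNK and 2 after LPS/NNK, and none rose. In these comparisons 29.9%, 23.7% and 27.1% of all items were called lower. Prkdc, the catalytic subunit of the DNA-dependent protein kinase, gave -0.78, -0.78 and -0.9 on the PBS arrays, -2.33, -1.83 and -2.63 after LPS, -1.86, -2 and -2.07 after NNK, and -2.37, -3.03 and -2.88 after LPS/NNK. All treated arrays lay below PBS, and LPS/NNK 3 and 6 were the lowest. Prkdc changed by -1.44 ± 0.26 (limma adjusted p = 0.000536), -1.16 ± 0.26 (limma adjusted p = 0.00276) and -1.94 ± 0.26 (limma adjusted p = 5.81e-05), the last a 3.84-fold fall, the largest fitted change against PBS among the 41. With normexp these were -0.83, -0.26 and -0.73, none called, and with PBS 3 alone LPS gave -1.36, LPS/NNK -1.86 and NNK -1.08, the last not called (limma adjusted p = 0.0794). Lig4, the ligase of end joining, fell after LPS (-1.13 ± 0.34; limma adjusted p = 0.0131; -0.7 and lost without LPS 1) and LPS/NNK (-1.16 ± 0.34; limma adjusted p = 0.0113), and its second probe changed by -2.3 and -2.49. With PBS 3 alone or normexp both Lig4 calls were lost; after NNK it was called without NNK 5 (-0.97). With all arrays Lig4 changed by -0.71 after NNK, not called, where its second probe, above background on all 12 arrays, changed by -1.86. Xrcc5 and Xrcc6, which form the Ku ring that binds broken ends, were not called in any comparison, with changes from PBS between -0.59 and -0.1.

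Of the Fanconi anaemia genes, which repair crosslinks between strands, Fanca was higher after LPS/NNK (1.45 ± 0.32; limma adjusted p = 0.00207), with 0.76 ± 0.32 after LPS and 0.5 ± 0.32 after NNK. Its PBS values were 0.04, -0.69 and -0.08 and its LPS/NNK values 0.55, 1.8 and 1.29, without overlap. With PBS 3 alone the change was 1.29 (limma adjusted p = 0.0562). Fanci was not called and read -1.37 on PBS 1 against -3.2 and -2.95 on the other PBS arrays. Fancd2 was above background on the 3 PBS arrays only, so no fold is given, and its call after LPS/NNK (limma adjusted p = 0.0299), lost with PBS 3 alone, rests on signal at background.

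**Figure D3:**
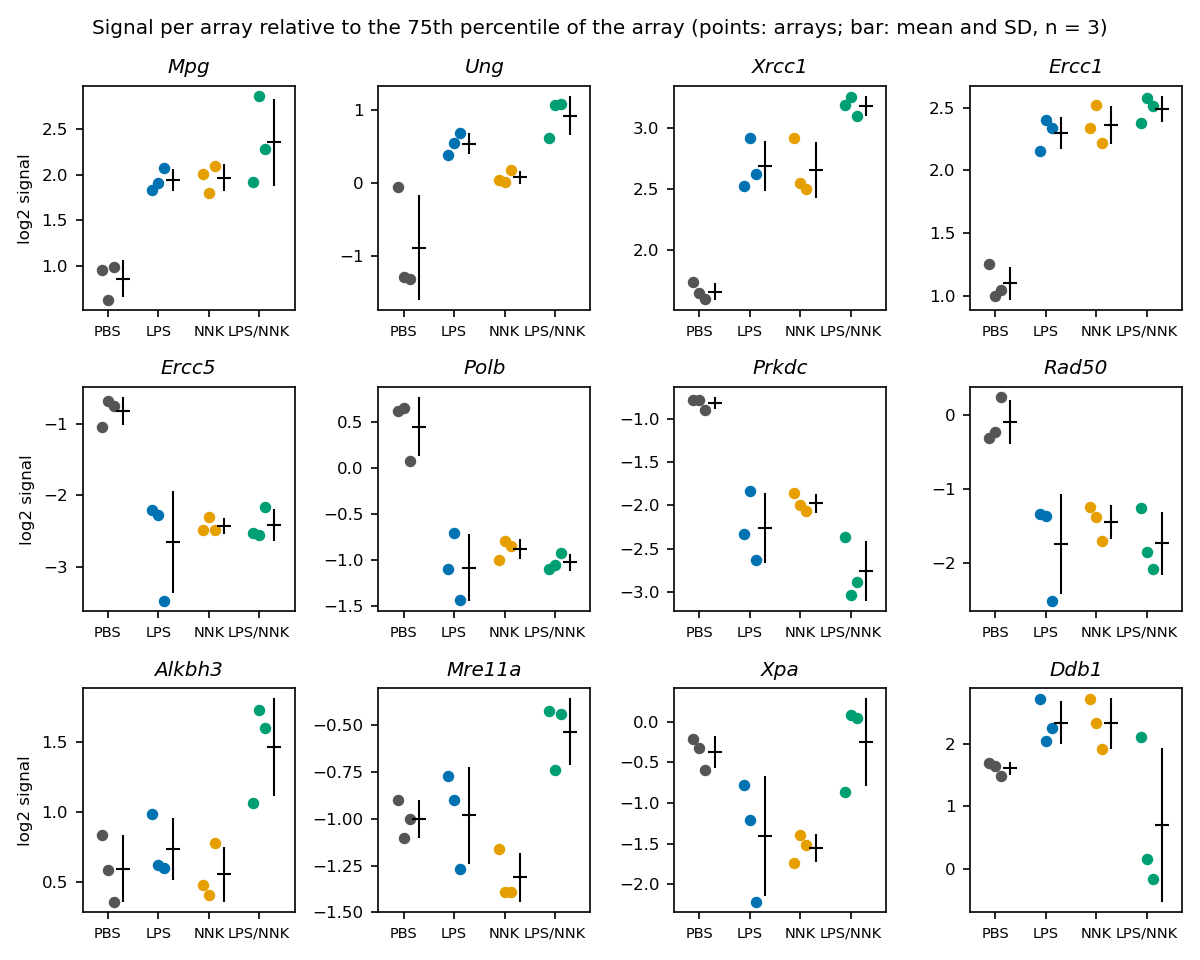
Log2 signal relative to the 75th percentile of each array for 12 repair genes, by group; each point is 1 array and the black mark is the mean with its SD (n = 3). Mpg, Ung, Xrcc1 and Ercc1 lie higher on the treated arrays than on PBS and Ercc5, Polb, Prkdc and Rad50 lower; in the bottom row the LPS/NNK arrays depart from NNK, with Ddb1 at 2.12 on LPS/NNK 2 and 0.16 and -0.17 on the other 2.

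The comparison of LPS/NNK with NNK asks what repeated LPS added to the carcinogen, and it uses no PBS array. By the labels the 2 groups also differed in weeks of dosing. The effect of LPS therefore cannot be told apart from age, time since NNK and weekly dosing. Alkbh3, Mre11a and Xpa were higher and Ddb1 lower, 4 of 41 genes, where 17.3% of all items were called (7.92% higher, 9.35% lower). The median change was 0.16 for the repair genes and -0.06 for all items. Xpa rose 2.47-fold (1.3 ± 0.35; limma adjusted p = 0.0247), Alkbh3 1.88-fold (0.91 ± 0.25; limma adjusted p = 0.0262) and Mre11a 1.72-fold (0.78 ± 0.22; limma adjusted p = 0.0298), and no LPS/NNK array of these 3 genes reached the NNK range. Of the 41 genes 10 had no overlap between these groups, against 35.9% of all items. Ddb1 was 3.09-fold lower (-1.63 ± 0.47; limma adjusted p = 0.0303), with overlap through LPS/NNK 2. Prkdc came next (-0.78 ± 0.26; limma adjusted p = 0.051), then Fanca (0.95 ± 0.32; limma adjusted p = 0.0587).

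These 4 calls were sensitive to single arrays and probes. Leaving out NNK 2, NNK 3, or the third or the sixth LPS/NNK array ended all 4 calls: in that order Xpa gave 1.21, 1.38, 1.14 and 1.16, Alkbh3 0.87, 0.84, 0.78 and 0.84, Mre11a 0.86, 0.74, 0.88 and 0.73, and Ddb1 -1.43, -1.62, -1.36 and -1.19. Without NNK 5 Xpa (1.32) and Mre11a (0.74) missed the threshold. Leaving out LPS/NNK 2 raised the count to 10 of 41, with 26.6% of all items called, and brought in Ercc2, with LPS/NNK then at background, Fanca (1.28), Msh6 (1.21), Mutyh (-0.79), Prkdc (-0.98) and Ung (1). Msh6 was also called without NNK 5 (1.19). NNK 3 and LPS/NNK 2 shared a slide, as did NNK 5 and LPS/NNK 3; within these slides the differences were 0.53 and 1.6 for Xpa, 0.65 and 0.95 for Alkbh3, 0.97 and 0.65 for Mre11a, and -0.22 and -1.77 for Ddb1, so the sizes differed between slides. Slide as a fixed effect ended the calls of Alkbh3 (0.77; limma adjusted p = 0.0983), Mre11a (0.77; limma adjusted p = 0.0988) and Ddb1 (-1.41; limma adjusted p = 0.0755) and kept that of Xpa (1.13; limma adjusted p = 0.0492); the replicate block ended that of Mre11a. Other probes went against 2 of the genes: the second Alkbh3 probe changed by -0.43 and the second Mre11a probe, above background on 5 arrays, by -0.41. With normexp no repair gene was called, and 1.62% of all items. A fit on these 2 groups alone ended the calls of Alkbh3, Mre11a and Ddb1, with 13.3% of all items called.

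LPS/NNK against LPS asks what the carcinogen added to LPS. No repair gene was called by limma, where 4.11% of all items were (2.85% higher, 1.26% lower); 10 of 41 had an unadjusted p under 0.05. The smallest p-values were those of Ddb1 (-1.64 ± 0.47; limma adjusted p = 0.0624), Tdg (0.98 ± 0.29; limma adjusted p = 0.0697), Xpa (1.15 ± 0.35; limma adjusted p = 0.0767) and Brca2 (1.25 ± 0.4; limma adjusted p = 0.0863). Brca2 read -3.92, -2.71 and -2.58 on the LPS arrays and -2.4, -1.63 and -1.44 on the LPS/NNK arrays. Without LPS/NNK 2 the count was 12 of 41 and 22.1% of all items, with Ddb1 at -2.35 (limma adjusted p = 0.000741), Xpa at 1.46 (limma adjusted p = 0.0146) and Brca2 at 1.54 (limma adjusted p = 0.025); 7 genes had no overlap between the groups, against 20.8% of all items, with LPS/NNK 2 kept. For these 3 genes LPS/NNK 2 lay closer to the LPS arrays than LPS/NNK 3 and 6 did.

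**Figure D4:**
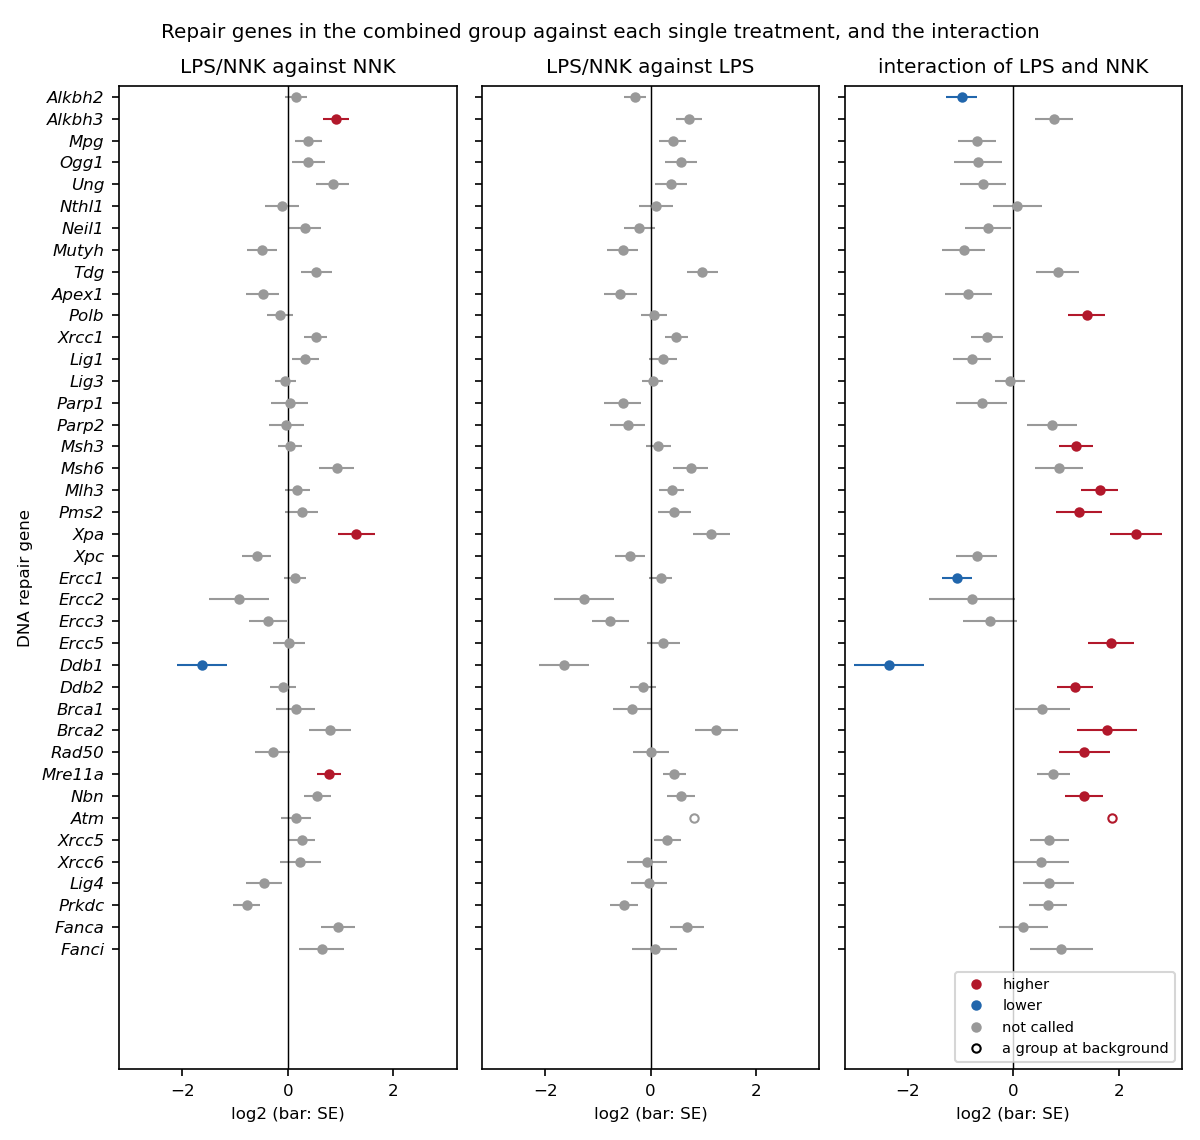
Log2 difference of LPS/NNK from NNK (left) and from LPS (middle), and the interaction of LPS and NNK (right), for 40 repair genes; bars are standard errors from limma and coloured points passed an adjusted p under 0.05. Alkbh3, Mre11a and Xpa (red) and Ddb1 (blue) are called in the left panel, 0 in the middle and 14 in the right; Fancd2 is not drawn, and open points for Atm involve a group at background.

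The interaction asks whether the effect of LPS differed with and without NNK. It was called for 14 of 41 repair genes, 11 positive and 3 negative, where 38.7% of all items were called (20.1% positive, 18.6% negative). It is the LPS/NNK mean minus the LPS and NNK means plus the PBS mean, so a gene on which all 3 treated groups differ from PBS by a like amount has an interaction of that size in the other direction. Ercc1 is such a gene, with changes from PBS of 1.2, 1.26 and 1.39 and an interaction of -1.07 ± 0.29 (limma adjusted p = 0.0136). Polb, with -1.53, -1.33 and -1.47, had 1.39 ± 0.35 (limma adjusted p = 0.00973). Xpa differed: it fell after either agent and not after both, with an interaction of 2.33 ± 0.5 (limma adjusted p = 0.00461). For Ddb1 the changes of 0.73 and 0.72 after single agents and -0.91 after both gave -2.36 ± 0.66 (limma adjusted p = 0.0145). With PBS 3 as the only PBS array 2 repair genes, Atm (1.85) and Mlh3 (1.87), kept the call, where 12% of all items were called; with normexp 0 did, where 0.261% were.

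Other genes of the same pathways, a list of 100 with 91 tested, were called against PBS in 51.6%, 50.5% and 42.9% of cases, no more often than all items. After LPS 17 were higher and 30 lower, after NNK 14 and 32, and after LPS/NNK 16 and 23, with medians of -0.34, -0.54 and -0.22. Fancb, of the Fanconi core complex, was lower in each comparison (-1.93, -1.6 and -2.1; limma adjusted p = 9.31e-05, 0.00049 and 3.64e-05). Against NNK, LPS/NNK had 7 higher and 1 lower of the 91 (8.79%, against 17.3% of all items) with a median of 0.33; Neil3 (1.54 ± 0.39; limma adjusted p = 0.0186), Brip1 (1.44 ± 0.39; limma adjusted p = 0.0248) and Fancl (1.19 ± 0.31; limma adjusted p = 0.0194) were among those higher, and Ercc6 was lower (-1 ± 0.24; limma adjusted p = 0.0128). Against LPS none of the 91 was called by limma, with 16 at an unadjusted p under 0.05. The interaction was called for 29 positive and 10 negative of the 91 (42.9%), against 38.7% of all items.

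Genes of dividing cells, leukocytes and lung cells moved in some of the same comparisons. Of all items 56%, 51.5% and 55.1% were called after LPS, NNK and LPS/NNK against PBS, and 17.3% in LPS/NNK against NNK. Of 29 proliferation genes tested, 12 were higher and 3 lower after LPS, 4 and 5 after NNK, and 17 and 0 after LPS/NNK, and 16 were higher and 0 lower in LPS/NNK against NNK, where Top2a changed by 1.71 ± 0.44 (limma adjusted p = 0.0187). Their summed level, in units of the 75th percentile of each array, was 23.7 to 52.7 on the PBS arrays, with PBS 1 the highest, 50.9 to 56.6 after LPS, 33 to 39.8 after NNK and 61.5 to 90.5 after LPS/NNK. Of 19 leukocyte markers 12 were higher after LPS, 8 higher and 4 lower after NNK, and 14 higher after LPS/NNK. In LPS/NNK against NNK 11 were higher. The summed level of the 19 was 233 to 396 for PBS, 513 to 784 for LPS, 632 to 864 for NNK and 700 to 1360 for LPS/NNK. A sum is set mostly by the brightest genes. The median level of the 19 was 1.07 to 1.37 for PBS, 1.93 to 2.7 for LPS, 1.07 to 1.32 for NNK and 2.33 to 2.94 for LPS/NNK. This median did not rise after NNK. Of the 17 lung markers 6 were higher and 3 lower after LPS, 8 and 2 after NNK, and 5 and 4 after LPS/NNK; the 6 of alveolar type 2 cells split 5 and 1, 5 and 0, and 4 and 0. The summed level of the 17 was 1170 to 1490 for PBS, 1890 to 2320 for LPS, 2180 to 2740 for NNK and 1610 to 3220 for LPS/NNK. Their median level was 4.63 to 4.97, 4.68 to 4.99, 5.17 to 5.67 and 4.55 to 5.46 in the same order. The part of dividing cells, leukocytes or lung cell types in the changes of the repair genes was not tested.

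Genes that were higher than PBS lay over shorter stretches of the genome than those that were lower. Among repair genes the median span from first to last base was 8.4 kb for the higher and 35.6 kb for the lower after LPS, 9 kb and 35.6 kb after NNK, and 14.2 kb and 36.2 kb after LPS/NNK. All named genes tested had the same order, with 14.5 kb and 31.7 kb, 15.3 kb and 29.3 kb, and 15 kb and 33.4 kb. Across the 41 repair genes the rank correlation of change with span was -0.529, -0.514 and -0.376, and across 13648 named genes -0.246, -0.203 and -0.239; genes share the same arrays, so these are descriptions. Spans are those of RefSeq (GRCm38.p6).

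**Figure D5:**
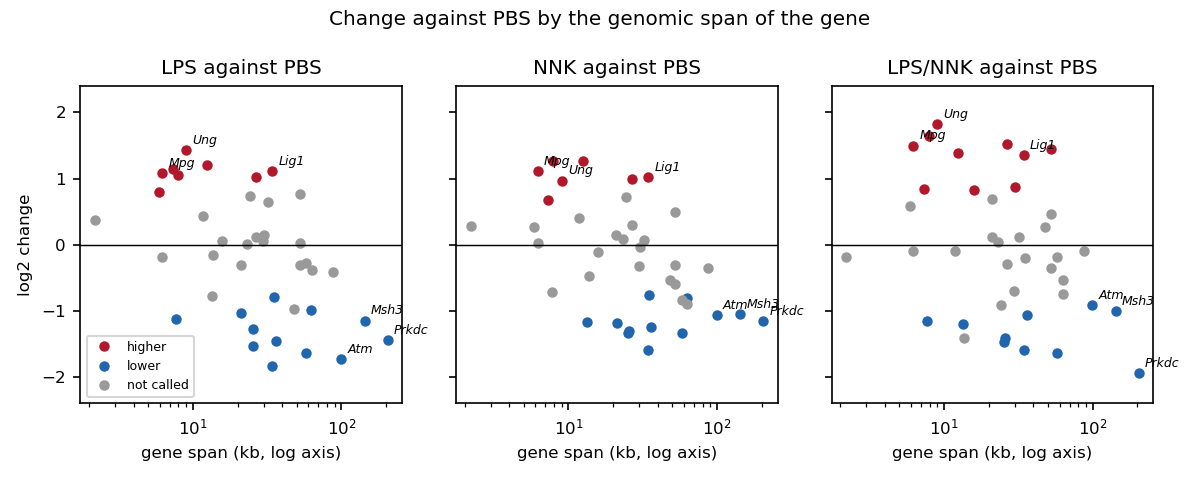
Log2 change against PBS (vertical axis) and genomic span in kb (horizontal log axis) of 40 repair genes after LPS, NNK and LPS/NNK; red points were called higher, blue lower and grey neither. Short genes such as Mpg and Ung lie at the upper left and long genes such as Msh3, Atm and Prkdc at the lower right. Some genes depart from this order: Lig4 (7.7 kb) was lower after LPS and LPS/NNK, and Lig1 was higher and Ercc5 lower, both at 34.3 kb. Atm after LPS is drawn at its fitted value although that group was at background, and Fancd2 is not drawn.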

How the data were processed

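Lung RNA of 12 samples was labelled with Cy3 and hybridised to 1-colour Agilent mouse arrays. The authors deposited the scanner output with an intensity per spot, made with Agilent Feature Extraction 10.7 per the submitters' processing notes, and a table of log2 values for which those notes name Partek. Of the deposited log2 values 91.3% lay within 0.001 of those computed here. The median difference of an array over all probes was -0.00027 to 0.00154. For probes with 1 spot the largest difference was 4.54e-05 after the median difference of each array was taken off. The deposited values are therefore log2 and centred within 0.00154 of the 75th percentile used here. Outlier spots and controls were left out, spots of a probe averaged, and log2 of the processed signal centred on the 75th percentile of each array. Probes were kept where some group had signal well above background on all its arrays, and the brightest stood for its gene. Symbols came from RefSeq accessions (59.2% of 41137 probes). All arrays entered 1 limma 3.58.1 fit (R 4.3.3), 2-sided, tested first on simulated data; figures used Python 3.11.15. An exact permutation test of 3 arrays against 3 cannot go below 0.1, and the number of arrays limits the precision.

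Every repair gene could be named. Values on every array were printed for the direct reversal genes, Mpg, the 12 genes with the smallest p among those called for LPS/NNK against either single agent or for the interaction, and the 4 largest rises and falls among called genes against PBS; a few others were added after their values were seen. The genes and lists were chosen with earlier results of these data known. The alternatives were another background correction, 3 other scalings, 2 other filters, the mean of probes, the deposited table, fits on 2 groups, a trended robust fit, slide as a fixed or random block, a replicate block, each array left out, and PBS 3 as the only PBS array. The normexp alternative used the median spot signal, since the files hold no mean signal. Deviations of same-numbered arrays of different groups had r of -0.147 to 0.408 (median 0.021) over 9 pairs, 6 of them at or under 0.1. For the 45 differently numbered pairs r was -0.411 to 0.339 (median -0.029), with 27 at or under 0.1. The numbers were not taken as pairs, though so few pairs cannot exclude pairing.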

Additional observations from a re-analysis of the deposited data

Results flagged for a closer look

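The interaction term of limma was called for 14 repair genes. Such a term also arises where all 3 treated groups differ from PBS by a like amount. Ddb2, with -1.27, -1.31 and -1.41 after LPS, NNK and LPS/NNK, is an example, as are Ercc1 and Polb. Of the 14, only Xpa and Ddb1 were also called in LPS/NNK against NNK, and none was called in LPS/NNK against LPS. Positive interactions, in log2, were found for Xpa (2.33; adjusted p = 0.00461), Atm (1.88; adjusted p = 0.00426), Ercc5 (1.85; adjusted p = 0.00705), Brca2 (1.78; adjusted p = 0.0267), Mlh3 (1.64; adjusted p = 0.00429), Polb (1.39; adjusted p = 0.00973), Rad50 (1.35; adjusted p = 0.0384), Nbn (1.34; adjusted p = 0.0126), Pms2 (1.25; adjusted p = 0.0369), Msh3 (1.19; adjusted p = 0.013) and Ddb2 (1.17; adjusted p = 0.0205). Negative ones were found for Ddb1 (-2.36; adjusted p = 0.0145), Ercc1 (-1.07; adjusted p = 0.0136) and Alkbh2 (-0.98; adjusted p = 0.0202). These are 34.1% of the 41 genes, where 38.7% of all items tested had such a call. With normexp 0 of the 14 were called, and with PBS 3 as the only PBS array 2 were (Atm and Mlh3). For Atm the LPS arrays were not above background, so its value is not a measured size. Leaving out 1 array ended the call for Brca2 (6 arrays, 1.35 to 1.71), Pms2 (9 arrays, 0.86 to 1.32), Rad50 (9 arrays, 0.96 to 1.46), Ddb2 (without NNK 3, 1.1) and Alkbh2 (without PBS 1, -0.93).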

How the results depend on the processing

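The numbers of repair genes called are given in the order LPS, NNK and LPS/NNK against PBS, then the combined group against NNK and against LPS, then the interaction: 20, 19, 21, 4, 0 and 14. Under normexp they were 6, 5, 10, 0, 0 and 0; it shifted the median change of all items to 0.334, 0.554, 0.531, -0.175, 0.311 and -0.384, and turned Atm (0.08, 0.9, 0.69 against PBS and -0.3 for the interaction), Fancd2 (1.52 after NNK, 1.23 after LPS/NNK) and Mlh3 (0.3, 0.11); 94.4% of all items called in LPS/NNK against NNK were then higher, in place of 45.9%. With PBS 3 as the only PBS array they were 13, 8, 13 and, for the interaction, 2. Slide as a fixed effect, fitted without PBS 2 and the LPS arrays and with 2 residual degrees of freedom, gave 11 for NNK against PBS. It gave 1 for LPS/NNK against NNK, where slide as a random block, fitted on all arrays, gave 7. LPS/NNK against NNK also gave 1 with no filter, 7 with probes above background on all 12 arrays and 2 in a fit on both groups alone. LPS/NNK against LPS gave 1 with that stricter filter, 2 with the mean of probes, 1 with the trended robust fit and 5 with the replicate block, which otherwise gave 22, 19, 20, 3 and, for the interaction, 16. Leaving out 1 array gave 17 to 19, 16 to 17, 18 to 25, 0 to 10, 0 to 12 and 10 to 18; LPS/NNK 2 gave the 10 and the 12. Cyclic loess moved the higher share of called items in LPS/NNK against LPS from 69.3% to 56.8%. No filter moved the higher share against PBS to 66.7%, 70.4% and 68.2%. Calls that held under every alternative run were 6 of 20 after LPS (Alkbh2, Ercc1, Msh3, Polb, Rad50, Ung), 0 of 19 after NNK, 7 of 21 after LPS/NNK (Ercc1, Lig1, Mpg, Ogg1, Polb, Ung, Xrcc1), 0 of 4 and 0 of 14. Slide as a fixed effect was not run for LPS against PBS, so these 6 calls were not put to it. Signal near background limits Atm, Ercc2 and Fancd2. The cause of these shifts was not tested.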
